A study of Mus musculus with 25 samples.

Results

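The 36 interferon-stimulated genes described here were chosen by symbol as well-known members of the interferon response: Ifit1, Ifit2, Ifit3, Ifit3b, Isg15, Irf7, Irf9, Stat2, Oasl2, Oas1a, Oas2, Oas3, Usp18, Ifih1, Dhx58, Parp9, Parp14, Dtx3l, Ifi27, Ifi35, Ifi44, Rtp4, Rsad2, Mx1, Bst2, Xaf1, Trim25, Trim30a, Eif2ak2, Cmpk2, Zbp1, Samd9l, Herc6, Gbp2, Gbp3 and Sp100. Of these, 35 had a row in the table of 21720 genes, all 35 passed the filter on low counts, and 16515 genes in all were tested. Mx1 was not analysed here. The choice used no measured value, although results of these data were known when it was made.

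Brain cortex of 25 male mice aged 6 months was sequenced as bulk RNA, with 5 mice in each of 5 groups. The wild type group was C57BL/6J on vehicle. The other 4 groups were B6C3 mice with the genotype APPswe, PSEN1dE9, an amyloid model of Alzheimer's disease, and all of them carried both transgenes. One of these groups, the model control, was given vehicle, another 5 mg/kg of (-)-vestitol and another 5 mg/kg of salviolone. The last was given both compounds together, each at 2.5 mg/kg, and all injections went into the peritoneum once a day for 3 months. An isoflavan from plants (vestitol) and a diterpenoid from sage (salviolone) are not analogs of each other. Strain and transgenes differ together between the wild type and the model groups and cannot be told apart. In the widely used line of this name the mouse Prnp promoter drives both transgenes, and the labels name no promoter. The design asked how the model differed from wild type and how each treatment differed from the model control.

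Interferons are secreted proteins that cells release when they sense viral nucleic acid, or nucleic acid of their own in the wrong place. They bind receptors that act through Jak kinases and Stat proteins, and a complex that holds Stat2 and Irf9 binds a short promoter element and switches on the interferon-stimulated genes. In the brain, microglia, astrocytes, endothelium and neurons can all respond, and a subset of microglia near amyloid plaques is known for this gene program. In bulk tissue, fewer cells of a type and less RNA per cell cannot be told apart.

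Promoter sequences of 27 of the 36 genes were matched by symbol in the RefSeq table for GRCm38.p6, each 300 bases from 250 before to 50 after the gene's start. The core of the interferon-stimulated response element was searched as GAAANNGAAA on both strands, with overlapping matches allowed. It was found in 14 of the 27 genes (51.9%), against 1079 of 27025 genes (3.99%). The STAT element TTCNNNGAA was found in 5 of the 27 (18.5%) and in 9.55% of all genes. The 6 stretches of 110 bases below lie before the start of genes with such a match and are shown because they were picked for holding the core more than once. They read 5′ to 3′ on the gene's strand, and capitals mark every match to the core, which appears as TTTCNNTTTC where it lies on the other strand.
Ifit1, chr19:34640750-34640859, plus strand: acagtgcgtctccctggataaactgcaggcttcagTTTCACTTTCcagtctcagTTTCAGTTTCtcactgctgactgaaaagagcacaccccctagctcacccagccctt
Ifit3, chr19:34583338-34583447, plus strand: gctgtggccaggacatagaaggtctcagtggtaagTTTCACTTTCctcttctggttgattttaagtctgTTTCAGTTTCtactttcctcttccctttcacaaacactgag
Ifit3b, chr19:34607734-34607843, plus strand: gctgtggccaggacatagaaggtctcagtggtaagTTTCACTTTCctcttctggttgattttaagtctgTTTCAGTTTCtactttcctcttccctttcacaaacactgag
Isg15, chr4:156200822-156200931, minus strand: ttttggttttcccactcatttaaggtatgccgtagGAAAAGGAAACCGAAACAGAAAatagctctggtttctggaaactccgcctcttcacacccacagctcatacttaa
Oas1a, chr5:120907526-120907635, minus strand: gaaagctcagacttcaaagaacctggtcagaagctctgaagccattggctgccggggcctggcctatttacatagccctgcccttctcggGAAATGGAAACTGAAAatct
Gbp3, chr3:142559934-142560043, plus strand: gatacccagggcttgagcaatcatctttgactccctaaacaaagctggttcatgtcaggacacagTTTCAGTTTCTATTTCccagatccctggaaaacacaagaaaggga

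The Ifit1, Ifit3 and Ifit3b stretches each held 2 separate matches, on the strand opposite the gene. Isg15 held 3 overlapping matches, and Oas1a and Gbp3 held 2 overlapping matches each. The stretches of Ifit3 and Ifit3b were identical at 110 of 110 bases. These genes are near-identical copies, so the split of their reads depends on the authors' counting and each of their values is uncertain. The same holds for Oas1a and Trim30a, which have close paralogs. Windows of Herc6, Irf7, Sp100 and Xaf1 held no match to either element, which says only that these letters are not in those windows. A match is a description of the sequence and was not tied to the counts.

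Libraries held between 59376320 and 109776852 counts. The App transcript, which includes the transgene's, was at 1672 ± 165 CPM in wild type (SD, n = 5) and at 4262 ± 354 CPM in the model control. CPM are counts scaled to the size of the normalised library. With vestitol App was at 4071 ± 311 CPM, with salviolone at 4605 ± 437 CPM and with the combination at 3758 ± 264 CPM. All transgenic mice had at least 3439 CPM and no wild type mouse over 1800.2 CPM, so the libraries match their genotype labels. Markers of the hypothalamus and pituitary, tissue that a cortex sample should lack, moved with the groups. Their summed level over 12 genes ranged over 81.4 to 263.6 CPM in model control mice, and over 78.9 to 132.8 CPM in vestitol mice. Salviolone mice had 81.8 to 98.0 CPM and combination mice 407.2 to 675.6 CPM. Wild type mice had 394.5 to 578.4 CPM except replicate 2 at 107.7 and replicate 3 at 6323 CPM. The sum of 10 microglia markers ranged over 305.7 to 366.4 CPM in wild type mice, 365.8 to 456.2 CPM in model control mice and 340.4 to 442.8 CPM in combination mice, and no defining microglia marker was at 0.

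Levels of the genes relative to each other are given only per length, as the authors' FPKM averaged over all 25 mice. Ifi27, a small membrane protein gene, led at 24.4 FPKM, followed by Parp14 at 15.8, Ifit3 at 12.0 and Stat2 at 10.0 FPKM. The lowest were Ifi44 at 0.179, Oas3 at 0.140 and Zbp1 at 0.0712 FPKM. This order rests on the authors' gene lengths. The length that their FPKM imply was 0.38 kb for Parp14 and 7.78 kb for Usp18, which sets both genes' places. For Isg15 the implied length was 3.14 kb, longer than its annotated span (chr4:156283912-156285253), and for Zbp1 it was 5.77 kb. Places of other genes may rest on such lengths too, so the whole order is uncertain. All other levels in the text are CPM, compared only within a gene.

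Every tested interferon-stimulated gene was higher on average in the model control than in wild type, except Samd9l when model control replicate 2 was left out. Of the 35, 10 rose past the test and none was lowered. The 10 were Ifit1, Ifit2, Ifit3b, Irf7, Oas1a, Parp9, Parp14, Xaf1, Herc6 and Sp100 (edgeR quasi-likelihood test, two-sided, Benjamini-Hochberg adjusted p under 0.05 over all tested genes). That is 28.6% of the members, beside 5.37% of all tested genes raised and 6.21% lowered in this comparison. The median log2 fold change of the 35 was 0.56, beside -0.01 over all tested genes, and 48.6% of all tested genes lay above 0. With only the 10 mice of this contrast in the fit, 1 gene (Ifit3b) was called, while the median log2 fold change of the 10 genes stayed at 0.63. At an unadjusted p under 0.05, 21 members were higher and none lower, beside 12.5% of all tested genes higher and 13.3% lower.

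**Figure D1:**
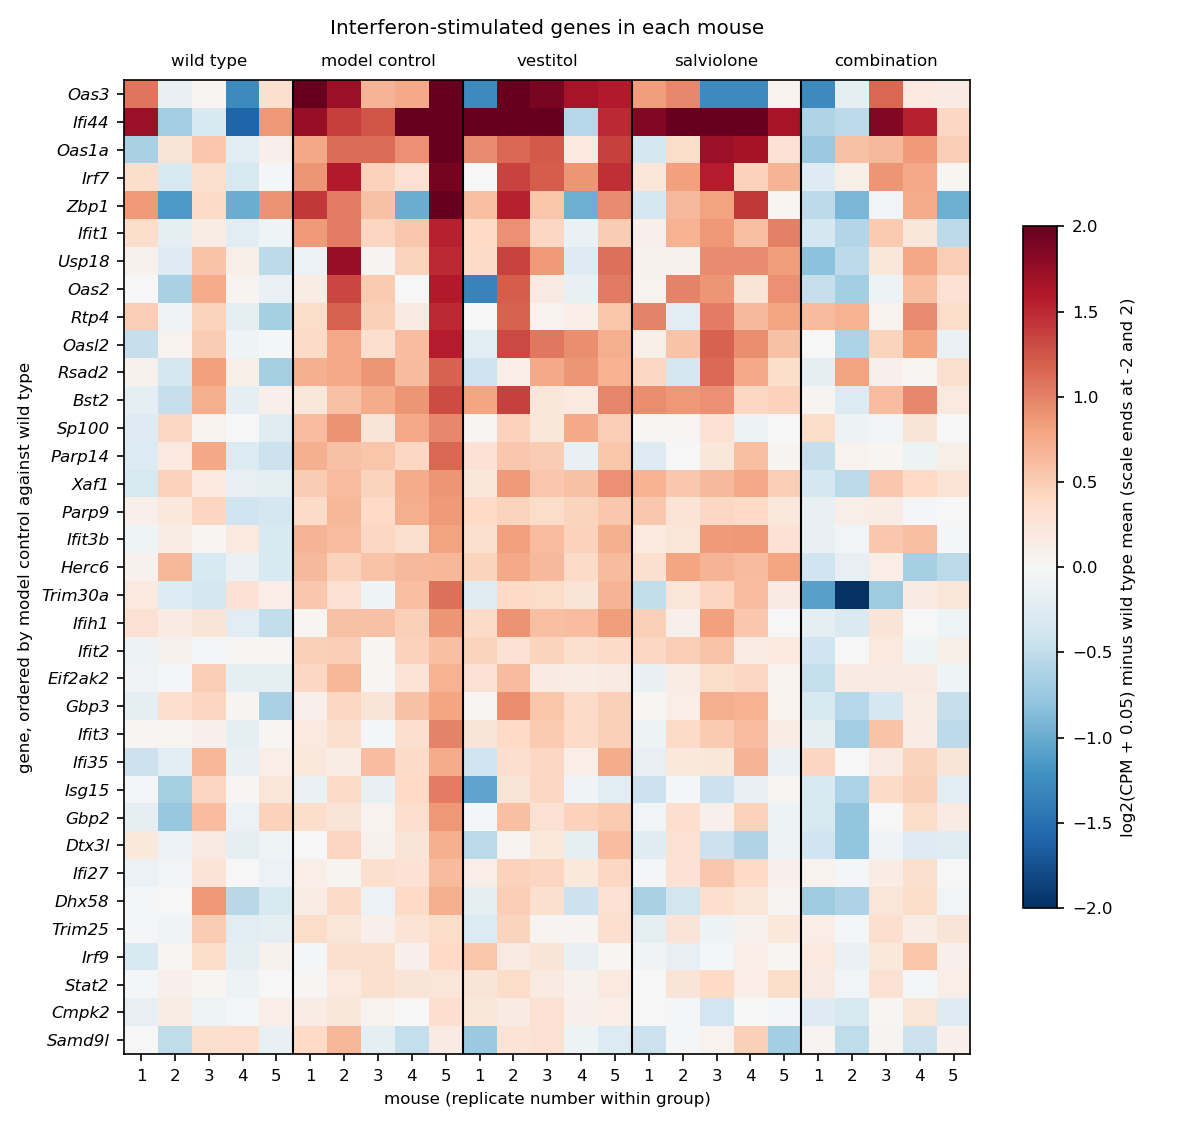
Each cell is 1 gene in 1 mouse, coloured by log2(CPM + 0.05) minus the mean of the 5 wild type mice. Rows are the 35 tested genes in order of their fold change between model control and wild type, and columns are the 25 mice by group and replicate number. Model control replicate 5 is the darkest red column, with the highest level of its group in 30 of 35 genes, and combination replicates 1 and 2 are mostly blue.

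Mice of the model control did not contribute alike. Averaged over the 35 genes, the log2 difference from the wild type mean was 1.07 in model control replicate 5 and 0.36 to 0.69 in the other 4. Replicate 5 was the highest mouse of its group in 30 of the 35 genes. Among wild type mice, replicate 3 stood highest with a mean difference of 0.32 and led its group in 18 genes, and this is the library with the high hypothalamus and pituitary markers. Without model control replicate 5 the count of raised genes was 3 (Ifit2, Parp9 and Sp100), and without wild type replicate 3 it was 14. The count was 5 without model control replicate 2, 6 without wild type replicate 1, 4 without wild type replicate 4 and 5 without wild type replicate 5. Shares of all tested genes called with 1 mouse left out are not given, here or below. A change particular to these genes thus cannot be told from a general one.

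Among the tetratricopeptide antiviral proteins, which bind viral RNA and block its translation, Ifit1, Ifit2 and Ifit3b rose. Ifit1 (mm39 chr19:34618271-34627409) was at 2.06, 1.41, 1.80, 1.38 and 1.52 CPM in wild type replicates 1 to 5 and at 2.96, 3.35, 2.20, 2.38 and 4.77 CPM in the model control. All 5 model mice lay above all wild type mice, and the log2 fold change was 0.94 ± 0.25 (SE, adjusted p = 0.0163). Ifit2 (chr19:34528094-34553819) was at 11.4, 13.0, 12.0, 12.6 and 12.6 CPM in wild type against 17.2, 17.4, 12.6, 17.1 and 18.7 CPM in the model. Replicate 3 of the model fell among the wild type mice and the other 4 lay above them, and the log2 fold change was 0.43 ± 0.11 (adjusted p = 0.0106). Ifit3b (chr19:34585370-34590801) was at 6.37, 7.49, 6.88, 7.75 and 5.46 CPM against 10.9, 10.4, 9.001, 8.39 and 11.8 CPM, again without overlap, a log2 fold change of 0.57 ± 0.17 (adjusted p = 0.0251). Its copy Ifit3 did not pass: wild type mice were at 10.7 to 13.0 CPM, 4 model mice at 12.0 to 15.3 CPM and replicate 5 at 24.2 CPM. Only 3 of the 35 genes had no overlap between the groups, Ifit1, Ifit3b and Oas1a, beside 2.43% of all tested genes that were higher without overlap.

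The oligoadenylate synthetases make the second messenger that activates the RNA-cutting enzyme RNase L. Oas1a (chr5:121034319-121045584) was at 0.485, 0.955, 1.17, 0.669 and 0.849 CPM in wild type and at 1.40, 1.77, 1.77, 1.53 and 3.50 CPM in the model. The groups did not overlap, replicate 5 stood apart within the model, and the log2 fold change was 1.27 ± 0.38 (adjusted p = 0.0316). Oas2, at 1.38 ± 0.514 against 2.42 ± 1.23 CPM, and Oasl2, at 2.98 ± 0.751 against 5.13 ± 2.07 CPM, did not pass (adjusted p = 0.198 and 0.08). Oas3 had few reads: wild type mice were at 0.203, 0.0588, 0.0730, 0 and 0.101 CPM and model mice at 0.546, 0.344, 0.144, 0.154 and 0.565 CPM (adjusted p = 0.222). If counts are independent reads, the wild type 0 allows up to 0.0347 CPM. Over all groups Oas3 was at 0 in 5 of 25 mice.

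Irf7, the factor that amplifies interferon production, rose, while Stat2 and Irf9 of the complex that relays the receptor signal did not pass. Irf7 (chr7:140842619-140846394) was at 1.94, 1.22, 1.91, 1.20 and 1.47 CPM in wild type and at 2.84, 4.67, 2.11, 1.88 and 5.84 CPM in the model. Model replicates 2 and 5 were far above the rest and replicate 4 lay among the wild type mice, and the log2 fold change was 1.17 ± 0.33 (adjusted p = 0.0216). Stat2 was at 38.1 ± 1.91 CPM in wild type and 44.1 ± 3.38 CPM in the model, a log2 difference of 0.21 ± 0.08 that did not pass (adjusted p = 0.0809). Irf9 was at 13.2 ± 2.37 and 15.4 ± 1.88 CPM (adjusted p = 0.324). Irf7 shares 45 annotated bases with Phrf1 and Irf9 shares 123 with Rnf31, and the strand setting of the counting is not given in the sources used here, so reads of such neighbours could not be told apart.

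Parp9 forms a complex with the ubiquitin ligase Dtx3l, and Parp14 is an ADP-ribosyltransferase encoded beside them. Parp9 (chr16:35758840-35792975) was at 4.24, 4.55, 5.31, 2.99 and 3.10 CPM in wild type and at 5.15, 6.25, 5.21, 6.58 and 7.12 CPM in the model. Model replicates 1 and 3 lay just under the highest wild type mouse, and the log2 fold change was 0.59 ± 0.14 (adjusted p = 0.00767). Parp14 (chr16:35653244-35691914) was at 4.11, 5.71, 8.54, 4.08 and 3.65 CPM against 8.12, 7.44, 7.35, 6.62 and 11.0 CPM. Wild type replicate 3 reached into the model's range, and the log2 fold change was 0.64 ± 0.21 (adjusted p = 0.046). Dtx3l did not pass, at 7.49 ± 0.957 against 9.31 ± 1.94 CPM (adjusted p = 0.315). The annotated spans of Parp9 and Dtx3l overlap by 682 bases.

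The other raised genes were Herc6, Xaf1 and Sp100. Herc6 (chr6:57557985-57641617), the ligase that attaches Isg15 to proteins in mice, was at 11.2, 16.8, 8.57, 9.62 and 8.60 CPM in wild type and at 16.7, 14.5, 15.7, 16.7 and 16.8 CPM in the model. Wild type replicate 2 was as high as the model mice and the other 4 lay below all of them, a log2 fold change of 0.56 ± 0.16 (adjusted p = 0.0217). Xaf1 (chr11:72192455-72204559), which promotes cell death, was at 3.11, 5.36, 4.45, 3.47 and 3.43 CPM against 5.52, 5.99, 5.31, 6.57 and 7.21 CPM. The groups met only at wild type replicate 2 and model replicate 3, and the log2 fold change was 0.63 ± 0.19 (adjusted p = 0.0283). Sp100 (chr1:85577709-85637719), a nuclear body protein that restricts viral DNA, was at 2.58, 4.13, 3.24, 3.10 and 2.58 CPM against 4.75, 5.75, 3.67, 5.23 and 6.02 CPM. Its log2 fold change of 0.70 ± 0.16 had the smallest adjusted p of the 35 genes (0.00704), with 4 of 5 model mice above all wild type mice.

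The other 25 genes did not pass, at log2 differences of 0.14 for Samd9l to 2.01 for Oas3. Closest to the threshold were Ifih1, the sensor of long double-stranded RNA (0.51 ± 0.18, adjusted p = 0.062), and Bst2, which tethers budding virus (0.75 ± 0.27, adjusted p = 0.0731). Isg15, the ubiquitin-like protein that names the group, was at 1.69 ± 0.456 in wild type and 2.14 ± 0.781 CPM in the model (adjusted p = 0.505). Usp18, which removes Isg15 and restrains the receptor, was at 1.35, 1.04, 1.88, 1.37 and 0.862 CPM against 1.15, 4.30, 1.31, 1.72 and 3.64 CPM, high in model replicates 2 and 5 alone (adjusted p = 0.127). Rsad2, or viperin, was at 1.40 ± 0.592 and 2.40 ± 0.390 CPM (adjusted p = 0.0888). Its neighbour Cmpk2, a nucleotide kinase, differed by 0.16 ± 0.10 (adjusted p = 0.356). Rtp4, a chaperone of membrane receptors that also restricts viruses, differed by 0.79 ± 0.31 (adjusted p = 0.0975), and Ifi44 by 1.75 ± 0.81 (adjusted p = 0.17). Eif2ak2, the kinase that stops translation on double-stranded RNA, was at 7.06 ± 1.54 and 9.39 ± 1.76 CPM (adjusted p = 0.0926). Zbp1, a sensor of left-handed nucleic acid, was near the lower limit at 0.312 ± 0.208 and 0.648 ± 0.484 CPM (adjusted p = 0.316). Gbp3 and Gbp2 differed by 0.40 ± 0.20 and 0.32 ± 0.23, Trim30a by 0.53 ± 0.32, Ifi35 by 0.39 ± 0.22, Ifi27 by 0.29 ± 0.11, and Trim25 and the RNA helicase Dhx58 by 0.25 each (adjusted p = 0.0922 to 0.626).

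**Figure D2:**
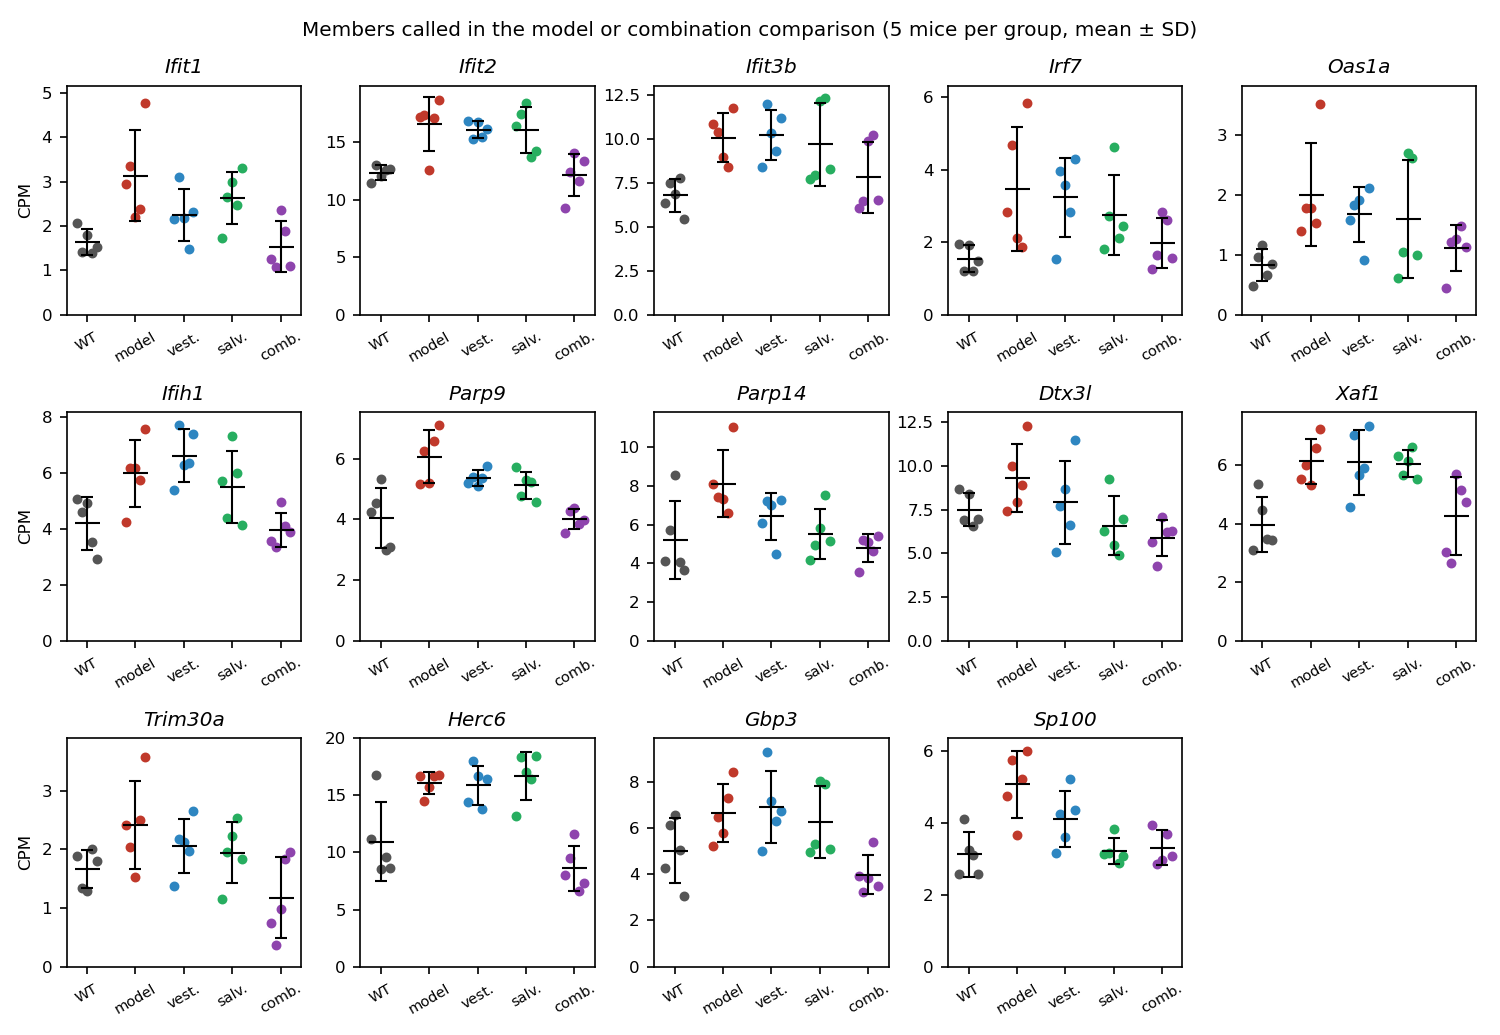
Levels in CPM (y axis, from 0, one scale per gene) of the 14 genes called in the model control against wild type or in the combination against the model control. Points are mice, horizontal marks the mean of 5 and bars the SD. Wild type and combination points lie mostly below the model control, as for Herc6, at 6.63 to 11.6 CPM with the combination and 14.5 to 16.8 CPM in the model control.

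With the combination of both compounds, all 35 genes were lower on average than in the model control, except Irf9 when model control replicate 5 or combination replicate 2 was left out. Of the 35, 10 fell past the test. These were Ifit1, Ifit2, Ifih1, Parp9, Parp14, Dtx3l, Trim30a, Herc6, Gbp3 and Sp100, 28.6% of the members, beside 7.13% of all tested genes lowered in this comparison. None rose, beside 7.83% of all tested genes. The median log2 fold change was -0.59, beside 0.00 over all tested genes. Without overlap between the groups, 4 genes were lower (Parp9, Parp14, Dtx3l and Herc6), beside 5.59% of all tested genes. At an unadjusted p under 0.05, 22 genes were lower, beside 13.5% of all. The model control enters this comparison and the one with wild type alike, so values from both are set side by side and their likeness is no result. Without model control replicate 5, 5 genes fell: Ifit1, Ifit2, Parp9, Herc6 and Sp100.

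Herc6 had the smallest adjusted p. It was at 8.05, 9.47, 11.6, 6.63 and 7.28 CPM in combination replicates 1 to 5, all below the lowest model mouse at 14.5 CPM, and the log2 fold change was -0.90 ± 0.16 (adjusted p = 0.000573). Parp9 was at 3.54, 4.27, 4.37, 3.85 and 3.98 CPM, a narrow range under every model mouse (-0.60 ± 0.14, adjusted p = 0.00443). Parp14 was at 3.57, 5.23, 5.09, 4.64 and 5.41 CPM with the combination, also under every model mouse (-0.76 ± 0.21, adjusted p = 0.0136). Dtx3l, partner of Parp9, was at 5.64, 4.29, 7.09, 6.20 and 6.26 CPM, against 7.41, 10.0, 7.92, 8.91 and 12.3 CPM in the model. It fell by 0.66 ± 0.19 on the log2 scale (adjusted p = 0.0201), and its combination mean of 5.90 CPM also lay under the wild type mean of 7.49 CPM, a difference that did not pass (adjusted p = 0.378).

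In the Ifit family, Ifit1 was at 1.26, 1.07, 2.35, 1.90 and 1.10 CPM with the combination, and 4 of these 5 mice lay below every model mouse. The log2 fold change was -1.02 ± 0.25 (adjusted p = 0.00699). Ifit2 was at 9.30, 12.3, 14.1, 11.6 and 13.4 CPM, overlapping the model only through its low replicate 3 (-0.45 ± 0.11, adjusted p = 0.0053). Ifit3 was split among the treated mice, at 10.7, 7.51, 18.0, 13.5 and 8.40 CPM, and Ifit3b likewise at 6.05, 6.48, 9.86, 10.2 and 6.54 CPM. Replicates 3 and 4 were at the level of the model mice in Ifit3b, and neither gene passed (adjusted p = 0.108 and 0.144).

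Ifih1 was at 3.57, 3.36, 4.95, 4.10 and 3.89 CPM against 4.25, 6.20, 6.18, 5.75 and 7.60 CPM in the model. One model mouse reached the treated range, and the log2 fold change was -0.59 ± 0.18 (adjusted p = 0.0248). Gbp3, a guanylate-binding GTPase of cell defence, was at 3.93, 3.25, 3.85, 5.40 and 3.50 CPM against 5.23, 6.45, 5.80, 7.29 and 8.43 CPM (-0.74 ± 0.20, adjusted p = 0.0153). Its neighbour Gbp2 did not pass (-0.46 ± 0.23, adjusted p = 0.188). Trim30a, a ubiquitin ligase that dampens inflammatory signalling, was at 0.742, 0.378, 0.987, 1.84 and 1.95 CPM against 2.41, 2.04, 1.54, 2.51 and 3.58 CPM. Replicates 4 and 5 of the combination lay within the model's range, and the log2 fold change was -1.03 ± 0.32 (adjusted p = 0.0321). Sp100 was at 3.95, 2.87, 2.98, 3.71 and 3.07 CPM (-0.62 ± 0.16, adjusted p = 0.0112). Irf7, at 1.26, 1.65, 2.82, 2.60 and 1.56 CPM, and Xaf1, at 3.02, 2.66, 5.68, 5.15 and 4.73 CPM, missed the threshold (adjusted p = 0.0968 and 0.0557). Irf9 and Stat2 were at -0.03 ± 0.13 and -0.10 ± 0.08 (adjusted p = 0.906 and 0.412), and with 1 mouse left out Irf9 ranged up to 0.03.

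Within the combination group the mice split, since the mean log2 difference from wild type over the 35 genes was -0.26 and -0.29 in replicates 1 and 2, 0.28 and 0.33 in replicates 3 and 4, and 0.01 in replicate 5. The libraries of replicates 3 to 5 were also the deepest, at 100379303 counts or more against 78403686 or fewer in replicates 1 and 2. The part of depth in this split was not tested.

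**Figure D3:**
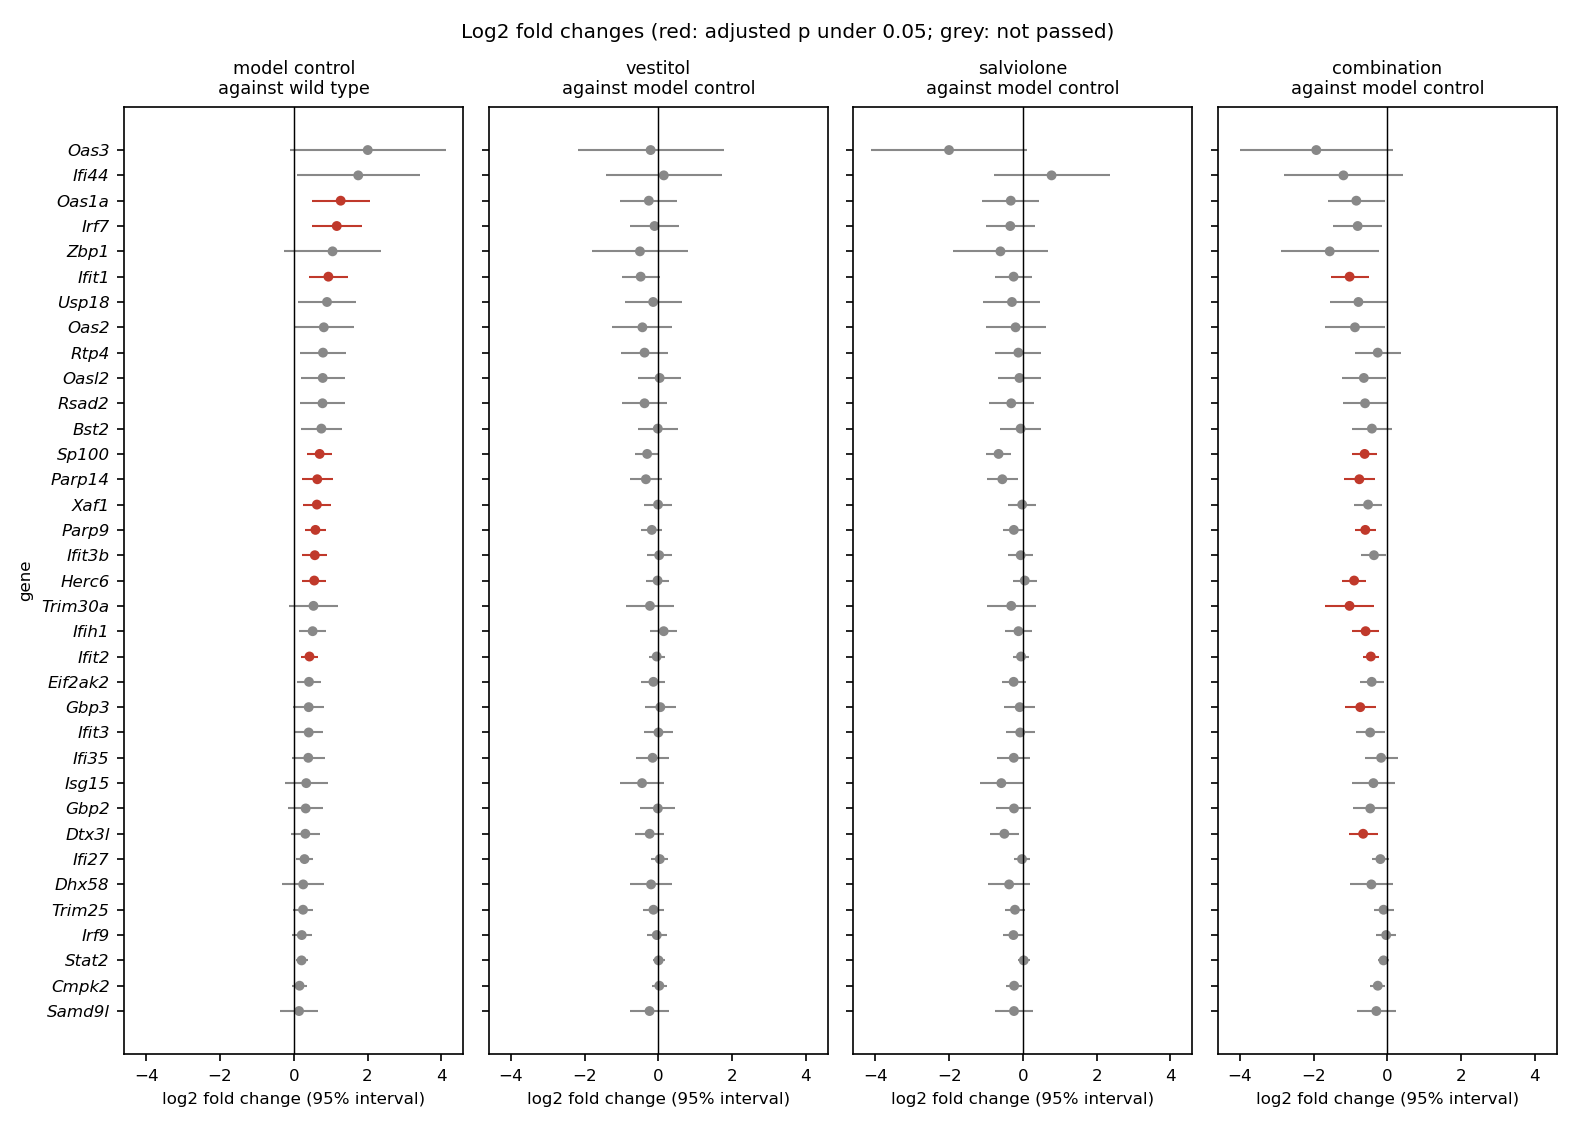
Log2 fold changes (points) with 95% intervals (lines) of the 35 genes in the model control against wild type and in each treatment against the model control. Red marks an adjusted p under 0.05 and grey the rest. All points of the first panel lie to the right of 0 and all points of the combination panel to the left. Many intervals cross 0 in both panels. The panels of the single compounds hold no red point.

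Neither compound alone changed a member past the test. With (-)-vestitol at 5 mg/kg, 26 of the 35 genes were below the model control and 9 above, with a median log2 difference of -0.13. Called members numbered 0, beside 0.0% of all tested genes, with DESeq2 and limma also giving 0. None had an unadjusted p under 0.05, beside 3.77% of all tested genes higher and 3.79% lower. The smallest adjusted p was 0.695, for Ifit1 at 2.16, 3.10, 2.18, 1.48 and 2.32 CPM (-0.48, 95% interval -0.99 to 0.03). The intervals were wide for genes of low level, such as Oas3 (-2.19 to 1.77), and narrower for others. Ifit2 was at 16.8, 15.2, 16.8, 15.4 and 16.1 CPM with vestitol, a difference of -0.04 (-0.26 to 0.17). For Herc6, mice were at 14.4, 18.0, 16.7, 13.8 and 16.4 CPM, a difference of -0.02 (-0.34 to 0.30).

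With salviolone at 5 mg/kg, 32 genes were below the model control and 3 above, with a median of -0.24. Called members numbered 0, beside 0.0242% of all tested genes lowered, and 4 were lower at an unadjusted p under 0.05: Sp100, Parp14, Dtx3l and Cmpk2, beside 6.29% of all tested genes. None was higher, beside 5.18%. Sp100 came closest, at 3.15, 3.17, 3.82, 2.88 and 3.07 CPM, with 4 of 5 mice below all model mice and a log2 difference of -0.66 ± 0.16 (adjusted p = 0.133). DESeq2 called 1 member in this comparison, Sp100, and limma none. Parp14 was at 4.16, 4.92, 5.82, 7.55 and 5.14 CPM (-0.56 ± 0.21, adjusted p = 0.296) and Dtx3l at 6.29, 9.24, 5.49, 4.88 and 6.97 CPM (-0.50 ± 0.19, adjusted p = 0.303). Herc6 was at 13.2, 18.3, 17.1, 16.4 and 18.4 CPM, a difference of 0.05 (95% interval -0.27 to 0.37).

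The single compounds, matched at 5 mg/kg and 3 months, were also compared with each other as 1 pair over 35 genes. No member passed, beside 0.684% of all tested genes called in either direction, and DESeq2 and limma gave 0 as well. At an unadjusted p under 0.05, 2 genes were higher with vestitol and none with salviolone, beside 6.67% and 5.04% of all tested genes. Cmpk2 was at 21.9, 21.1, 23.3, 20.3 and 20.6 CPM with vestitol and at 19.0, 18.5, 14.4, 19.0 and 18.6 CPM with salviolone, the only gene without overlap, beside 1.71% of all tested genes. Its difference was 0.26 (95% interval 0.05 to 0.47, adjusted p = 0.275). Sp100 differed by 0.36 (0.02 to 0.69, adjusted p = 0.389). The median over the 35 genes was 0.09, and intervals were narrowest for Stat2 (-0.18 to 0.14), Ifit2 (-0.21 to 0.22) and Ifi27 (-0.17 to 0.29). The combination used 2.5 mg/kg of each compound, so its values stand beside those of the single compounds and no comparison of doses was made.

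Each treated group was also set against wild type. With vestitol, 8 genes were raised and none lowered (Ifit2, Ifit3b, Irf7, Ifih1, Parp9, Ifi27, Xaf1 and Herc6), beside 6.95% of all tested genes raised and 8.49% lowered, with a median of 0.40. Ifih1 was at 5.38, 7.71, 6.28, 6.37 and 7.42 CPM, all above the wild type mice at 2.91 to 5.08 CPM (0.66 ± 0.18, adjusted p = 0.0131). Ifi27 was at 27.5, 34.5, 33.5, 29.0 and 33.4 CPM against 23.1 to 30.3 CPM in wild type (0.33 ± 0.11, adjusted p = 0.0439). Ifit2, Ifit3, Ifit3b and Ifih1 had no overlap with wild type, beside 3.4% of all tested genes. The count of raised genes was 3 without vestitol replicate 2, 4 without vestitol replicate 5, and 3 without wild type replicate 4 or 5.

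With salviolone, 6 genes were raised against wild type and none lowered (Ifit2, Ifit3b, Stat2, Ifi44, Xaf1 and Herc6), beside 8.32% of all tested genes raised and 9.45% lowered, with a median of 0.33. Stat2 was at 38.1, 45.6, 50.0, 41.7 and 48.6 CPM against 35.5 to 40.7 CPM (0.23 ± 0.08, adjusted p = 0.0381). Ifi44, an antiviral protein of low level here, was at 0.496, 0.968, 1.84, 0.853 and 0.428 CPM against 0.454, 0.0441, 0.0730, 0 and 0.228 CPM in wild type (2.53 ± 0.82, adjusted p = 0.0338). If counts are independent reads, the wild type 0 allows up to 0.0347 CPM. Xaf1, at 5.50 to 6.62 CPM, and Ifit2, at 13.7 to 18.3 CPM, had no overlap with wild type, beside 4.11% of all tested genes. The count was 2 without salviolone replicate 3 and 3 without wild type replicate 1, 4 or 5.

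With the combination, 0 members passed against wild type, beside 1.19% of all tested genes raised and 1.04% lowered, and DESeq2 and limma gave 0. Of the 35 genes, 17 were above and 18 below wild type, with a median of -0.01. At an unadjusted p under 0.05 there was 1 gene, Herc6, lower by -0.35 (95% interval -0.67 to -0.02), beside 8.17% of all tested genes lower and 8.43% higher. For Parp9 the difference was -0.01 (-0.30 to 0.27) and for Ifit2 -0.02 (-0.24 to 0.20). Intervals were wider for Irf7 (-0.31 to 1.03) and Oas1a (-0.36 to 1.22).

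The hypothalamus and pituitary markers moved with these results. Of the 12 markers, 6 were lowered in the model control against wild type and 7 raised with the combination against the model control. Against wild type, 9 were lowered with vestitol and 8 with salviolone. Wild type replicate 2, the only wild type library with a sum inside the model control's range, had a mean difference of -0.10 over the 35 genes, beside 0.36 to 1.07 in the model mice. A single mouse cannot show the part of this tissue. No combination mouse had a sum under 407.2 CPM and no model control mouse one over 263.6 CPM. Tissue and treatment thus cannot be told apart in that comparison. The following fit takes its slope from all groups and cannot separate them either. The part of this tissue in the results was not tested otherwise. With the markers' mean log2 level as a covariate, the median change of the 10 genes raised in the model went from 0.63 to 0.69 and that of the 10 lowered with the combination from -0.70 to -0.74, all with the same sign. Their median SE widened from 0.175 to 0.215 and from 0.184 to 0.251, and 1 gene (Parp9) and 0 genes kept their call. Adjusted p values then ran from 0.042 to 0.326 in the model and from 0.0577 to 0.249 with the combination. The 8 genes raised with vestitol against wild type became 0 with this covariate, and the 6 raised with salviolone became 2.

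**Figure D4:**
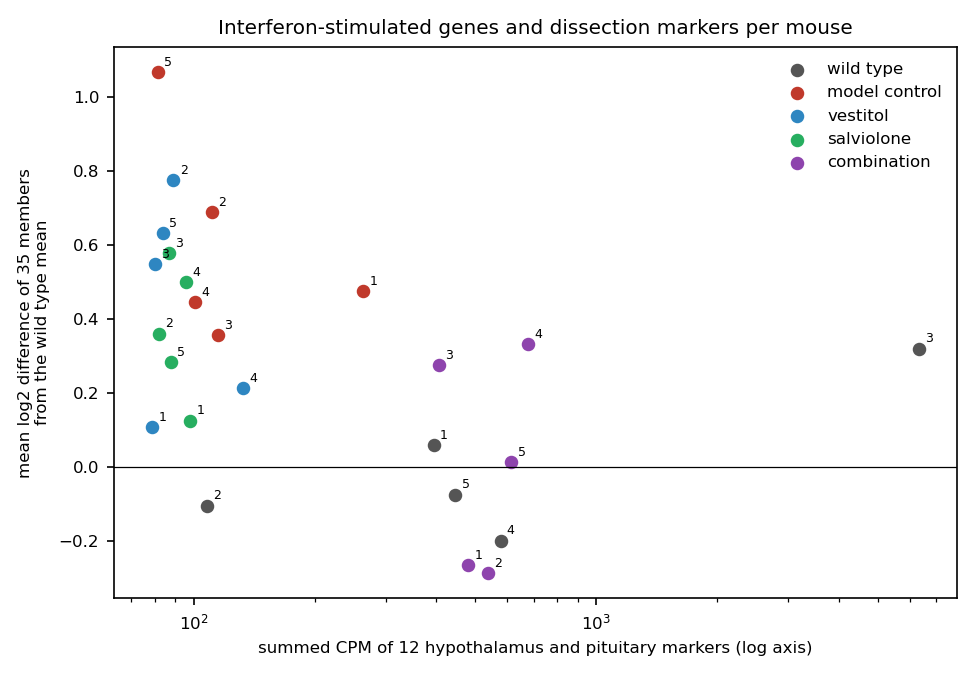
Each point is a mouse, numbered by replicate. The x axis is the summed CPM of 12 hypothalamus and pituitary markers on a log scale, and the y axis the mean log2 difference of the 35 genes from the wild type mean. Wild type replicate 2 sits at 107.7 CPM and -0.10, and the model control mice at 81.4 to 263.6 CPM and 0.36 to 1.07. The combination mice lie between 407.2 and 675.6 CPM.

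Cell type markers gave these values beside the same comparisons. Of 12 genes of plaque-associated microglia, 7 were raised in the model control and 8 in the combination group, each against wild type, and 1 was raised with the combination against the model control. Their summed level ranged over 1141 to 1388 CPM in wild type mice, 1389 to 1642 CPM in model control mice and 1529 to 1844 CPM in combination mice. The median log2 difference of the 12 genes from wild type was 0.82 in the model control and 0.83 in the combination group. With the combination against the model control it was -0.02. The 10 microglia markers had 1 raised in the model and 0 changed with the combination against it. The 8 astrocyte markers summed to 3953 to 4410 CPM in wild type mice and 4553 to 5104 CPM in model control mice, with 1 raised. With the combination they summed to 3958 to 4431 CPM, with 1 lowered against the model control. These sums were thus higher in every model control mouse than in any wild type or combination mouse. The median log2 difference of the 8 astrocyte markers was 0.11 in the model and 0.01 with the combination against it. The sums thus do not stand for each marker. Markers of T, NK and B cells summed to 11.9 to 21.0 CPM in wild type mice and 14.3 to 18.9 CPM in the model control. Combination mice had 23.1 to 27.9 CPM. Ncr1 and Ms4a1 were at 0 in every model mouse, and Ms4a1 was at 0 in every combination mouse. Of the 6 tested markers of these cells, 1 was raised with the combination against the model control, and their median log2 difference was -0.09. The 8 choroid plexus markers summed to 18.5 to 469.6 CPM in the model control and 12.5 to 71.8 with the combination, where 2 were lowered. The 5 blood markers summed to 9.28 to 16.6 CPM in wild type mice, 16.5 to 147.6 CPM in model control mice and 3.68 to 37.9 CPM in combination mice. Their median log2 difference was 2.00 in the model and -1.28 with the combination against it, and none was called. The 7 meninges markers summed to 78.2 to 131.6, 47.0 to 101.3 and 62.8 to 117.1 CPM in these groups, with 2 lowered in the model. The part of these cell types in the results was not tested.

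Upstream of the 35 genes, the interferon pathway was described by 70 genes in lists of ligands, receptors, signalling proteins, sensors with adaptors and negative regulators, of which 67 were in the table. None of the 21 interferon genes could be tested. Ifnb1 was at 0 in all 25 mice, as were 9 of the alpha interferons and both lambda interferons, and the highest count of any was 13, for Ifne and Ifnk. Ifng had counts in 2 mice. Of the 46 tested genes, 5 were raised in the model control (1 of 6 receptors and 4 of 10 signalling proteins) and none of 15 sensors and adaptors or 15 negative regulators, beside 5.37% of all tested genes raised. Il10rb, the shared chain of the lambda interferon receptor, was at 8.01 ± 0.577 in wild type and 10.9 ± 1.52 CPM in the model (0.44 ± 0.14, adjusted p = 0.0406). The receptor chains Ifnar1 and Ifnar2 differed by 0.01 ± 0.06 and 0.04 ± 0.08 (adjusted p = 0.936 and 0.795). The next genes by p did not pass: Ptpn6, Ddx58 (an RNA sensor), Ikbke, Irf2, Ticam2, Nlrc5 and Ifngr2, at adjusted p values of 0.0544 to 0.201, with Ikbke lower in the model (-0.62) and the others higher (0.10 to 0.76).

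Among the signalling proteins, Jak2 rose by 0.31 ± 0.07 (adjusted p = 0.00895), Stat3 by 0.18 ± 0.06 (adjusted p = 0.0467) and Irf8, also a microglial transcription factor, by 0.62 ± 0.13 (adjusted p = 0.0037). With the combination against the model control, 1 of the 46 was lowered, beside 7.13% of all tested genes. It was the phosphatase Ptpn2 that switches off Jak and Stat signalling (-0.29 ± 0.08, adjusted p = 0.0149). Irf8 stood at 9.99 ± 1.73 CPM with the combination and remained raised against wild type (0.57 ± 0.13, adjusted p = 0.018).

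A further list held 87 other interferon-stimulated genes, of which 84 were in the table and 77 were tested. In the model control 8 were raised and none lowered, beside 5.37% of all tested genes raised and 6.21% lowered, with a median of 0.30. Cxcl10, a chemokine that draws T cells, was at 0.130 ± 0.0807 in wild type and 1.12 ± 0.344 CPM in the model (3.09 ± 0.55, adjusted p = 0.00134). B2m, the light chain of class I molecules, was at 38.6 ± 11.2 and 64.4 ± 8.02 CPM (0.74 ± 0.16, adjusted p = 0.00486). The GTPase Irgm1 was at 8.25 ± 1.08 and 12.8 ± 2.26 CPM (0.63 ± 0.12, adjusted p = 0.00254). Slfn5, Slfn2, Lgals3bp and Znfx1 were raised by 0.60, 0.88, 0.71 and 0.27. Sp110, Casp1, Oasl1 and Phf11d came next and did not pass (adjusted p = 0.056 to 0.0915).

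With the combination, 6 of the 77 were lowered against the model control and none raised, beside 7.13% of all tested genes lowered and 7.83% raised, so the lowered share is near that of all genes. The median was -0.37. Irgm1 was at 8.20 ± 1.46 CPM (-0.64 ± 0.12, adjusted p = 0.00128) and Slfn2 at 1.45 ± 0.321 CPM against 2.74 ± 0.917 CPM (-0.92 ± 0.27, adjusted p = 0.0196). Igtp, a GTPase like Irgm1, and Znfx1, a helicase-like RNA sensor, were lower by -0.65 ± 0.22 and -0.24 ± 0.07. Oasl1, at 0.107 ± 0.0823 against 0.751 ± 0.595 CPM, and Ifi207, at 0.0539 ± 0.0360 against 0.353 ± 0.144 CPM, fell from low levels (adjusted p = 0.0088 and 0.0129). Against wild type, 7 of the 77 were raised with vestitol and none lowered, beside 6.95% and 8.49% of all tested genes. With salviolone 8 were raised and 2 lowered, beside 8.32% and 9.45%. With the combination 0 were raised and 1 lowered, beside 1.19% and 1.04%. The raised shares with the single compounds are near those of all genes.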

How the data were processed

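The authors deposited raw counts per gene and FPKM for the same 25 mice. Per the submitters' processing notes, reads were trimmed with Trim Galore and aligned with STAR to mm39, and per the labels' protocols a TruSeq RNA kit V2 and a SMARTER mRNA-Seq kit were used. No version, counting tool, strand setting or annotation is given in the sources used here. Of the deposited counts from 4 to 39, 44.3% were multiples of 4 (25% by chance), so the fit was repeated on counts divided by 4. The FPKM served only for levels between genes and as an alternative.

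All 25 samples entered 1 fit in edgeR 4.0.16 (R 4.3.3): filterByExpr by group with a minimum count of 10 (16515 of 21720 genes, 99.99% of counts), TMM scaling, robust quasi-likelihood F test, two-sided, Benjamini-Hochberg adjustment over all tested genes in each of 8 comparisons. SE is the log2 fold change divided by the root of F. Printed CPM use TMM-scaled library sizes. Replicates are separate mice, with total counts of 59376320 to 109776852 each, and a count of 0 allows up to 3 counts, or 0.0273 to 0.0505 CPM, for counting error only. This limit takes counts as independent reads. The excess of multiples of 4 among low counts leaves that uncertain, so the limit could be too low. The script was tested on simulated data.

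Members and lists were chosen with earlier results of these data known. Every member is reported, and from the pathway list and the further list up to 12 genes each with the smallest p in the model comparison. Other genes of those lists were named after their values were seen. An item that the rule names is not reported here, although the counts of the lists include it. Alternatives were RLE scaling, other filters, DESeq2 1.42.0, limma 3.58.1 on log2 FPKM, only the samples of the contrast, a replicate block, counts divided by 4, the marker covariate, a tested 1.5-fold minimum and leaving out each mouse. Applying them to single members outside the model comparison was added after seeing the data. Promoters come from RefSeq GRCm38.p6, and gene spans in mm39 from the deposited table.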

Additional observations from a re-analysis of the deposited data

Results flagged for a closer look

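Among 175 sets of 5 mice (35 genes in 5 groups), 8 held a mouse whose gap to the nearest other mouse, on the log2 scale, was over 0.71 of the group's range, and chance gives about 1 in 20 sets. The 8 are near the number that chance gives, so they are listed as a description only. In wild type, replicate 3 was the high mouse 3 times: Ifi27 at 30.3 CPM beside 23.1 to 24.9, Trim25, a ubiquitin ligase of the RNA sensing pathway, at 17.4 beside 10.4 to 12.1, and Eif2ak2 at 9.75 beside 6.03 to 6.73. This is the library with 6323 CPM of hypothalamus and pituitary markers. In the model control, Ifit2 was low in replicate 3, at 12.6 CPM beside 17.1 to 18.7, and Oas1a was high in replicate 5, at 3.5 CPM beside 1.4 to 1.77. With the combination, Oas1a was low in replicate 1, at 0.453 CPM beside 1.13 to 1.48. With vestitol, Oas3 was at 0.0 CPM in replicate 1 beside 0.313 to 0.479. With salviolone, Cmpk2 was low in replicate 3, at 14.4 CPM beside 18.5 to 19.0.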

How the results depend on the processing

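Outside the leave-one-out fits, 583 results for single genes kept their direction and side of the threshold, 96 lost and 4 gained a call, and none reversed. The 583 include genes of the model comparison that were not called in the main fit and had no call to lose. Of the 96 losses, 34 came with the tested fold minimum, 32 with the marker covariate and 16 with only the samples of the contrast. In the model control against wild type the 10 raised genes became 1 with only the samples of the contrast, 1 with the marker covariate and 0 with a tested 1.5-fold minimum. The 10 genes lowered by the combination became 0 with the covariate and 0 with the fold minimum. For vestitol against wild type the 8 became 0 and 0 under these settings. For salviolone against wild type the 6 became 3 with only the samples of the contrast, 2 with the covariate and 0 with the fold minimum. DESeq2 lowered 1 gene with salviolone against the model control. The cause of the loss was not tested. Shares of all tested genes called under these settings, or with 1 mouse left out, are not given here. A loss particular to these genes therefore cannot be told from a general one. With the replicate number as a replicate block, counts were 11, 10, 10 and 5 in the same order, and 0 elsewhere. Same-numbered samples correlated at -0.134 to 0.17 (median 0.0103, 11 of 50 pairs over 0.1), and 8 of 25 samples correlated best with their own number. No strong pairing by number was seen, and these values cannot exclude a weak one. Leaving out 1 mouse gave 3 to 14 raised genes in the model, 5 to 12 lowered with the combination, 3 to 10 raised with vestitol and 2 to 9 with salviolone against wild type, and 0 to 0 in all other counts. In these fits, for all genes in the model comparison and the called genes elsewhere, 484 results were the same, 95 lost and 10 gained a call, and 1 reversed. The 484 again include genes that had no call to lose. The reversal was Samd9l in the model, where these fits ranged from -0.014 (without model control replicate 2) to 0.27. In the model comparison the widest intervals were those of Oas3, Ifi44 and Zbp1, genes of few counts. Irf9, not called with the combination against the model control, ranged from -0.14 to 0.03 with 1 mouse left out.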
